A study of Homo sapiens with 5 samples.

Results

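The Wnt pathway genes described here are the Wnt ligands, their Frizzled receptors and LRP co-receptors, the secreted antagonists, and the core factors inside the cell. They were chosen by gene symbol alone: all WNT, FZD, DKK and SFRP genes, together with FRZB, WIF1, LRP5, LRP6, AXIN1, AXIN2, CTNNB1, LEF1, TCF7, TCF7L1 and TCF7L2. Probe sets that name a single gene were found for 38 such genes of the 11963 genes measured, on 62 of the 22215 probe sets tested. AXIN2, TCF7 and SFRP2 were not analysed here, nor were WNT3 and FZD8, whose probe sets each name a further gene.

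Wnt proteins are secreted, lipid-modified ligands that bind a Frizzled receptor together with LRP5 or LRP6. Binding stops the AXIN1-containing destruction complex from degrading beta-catenin, which then enters the nucleus and activates genes with TCF and LEF factors. Dickkopf proteins block the LRP co-receptors, whereas SFRP proteins, FRZB and WIF1 bind the ligands themselves. In hESC, Wnt signaling is known both for effects on self-renewal and for driving the exit towards mesoderm and endoderm.

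All arrays held RNA of HES2, an established hESC line, that carried a lentiviral vector with an RFP reporter and an H1 promoter driving a miRNA. In wt miR-122-expressing cells (2 arrays, replicates 1 and 2) the miRNA was hsa-miR-122, which is abundant in liver. In the control cells (3 arrays, replicates 1 to 3) it was mutant miR-122, in which bases of the seed were changed. Before differentiation, the cells were kept on foreskin-derived feeder cells with bFGF, and both groups then differentiated spontaneously for 2 weeks in KO medium with neither. The comparison asks how the wt miRNA affected this spontaneous differentiation. The methods call the arrays independent experiments, and the labels do not say that replicates came from separate cultures, so p-values measure the spread between these arrays. A single line of hESC was used, and neither untransduced nor undifferentiated cells were on these arrays.

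The miRNA that separates the groups is shown because its seed, bases 2 to 8 in capitals, is the stretch that differs in the control vector. The sequence is that of RefSeq (GRCh38.p14, chr18:58451088-58451109, plus strand).
hsa-miR-122-5p: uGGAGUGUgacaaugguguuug

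Values are RMA values on the log2 scale, a gene with several probe sets is shown at the brightest of them over the 5 arrays, and a difference is wt minus mutant miR-122, with the standard error (SE) of limma. The median of an array lay between 6.32 and 6.36, the correlation between arrays between 0.995 and 0.997, and the median SE of a difference was 0.088. As these are bulk samples, fewer cells of a type and less RNA per cell cannot be told apart.

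The receptor gene FZD5 rose and the antagonist gene DKK2 fell in cells that expressed wt rather than mutant miR-122. The other 36 genes did not pass an adjusted p of 0.05 by limma. FZD5 and DKK2 kept their direction but no longer passed when any 1 of the 5 arrays was left out (adjusted p = 0.0698 to 0.227 by limma), nor with the methods' t-test after adjustment. Over all 11963 genes, 0.267% passed as higher and 0.234% as lower in wt cells. At an unadjusted p under 0.05, 5 of the 38 genes (13.2%) were higher and 6 (15.8%) were lower in wt cells, beside 8.84% and 6.87% of all genes. Both wt arrays lay above the 3 mutant arrays for 7 of the 38 genes (18.4%) and below them for another 7 (18.4%), beside 21.5% and 13.4% of all genes. The median difference was -0.02 in the 38 genes and 0.03 in all genes. In the 38 genes 18 means were higher and 20 lower in wt cells, beside 6990 and 4973 in all genes. The median size of a difference, sign ignored, was 0.17 in the 38 genes and 0.09 in all genes. Of the 38 genes, 15 lay below the median level of all probe sets, beside 5078 of all 11963 genes.

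**Figure D1:**
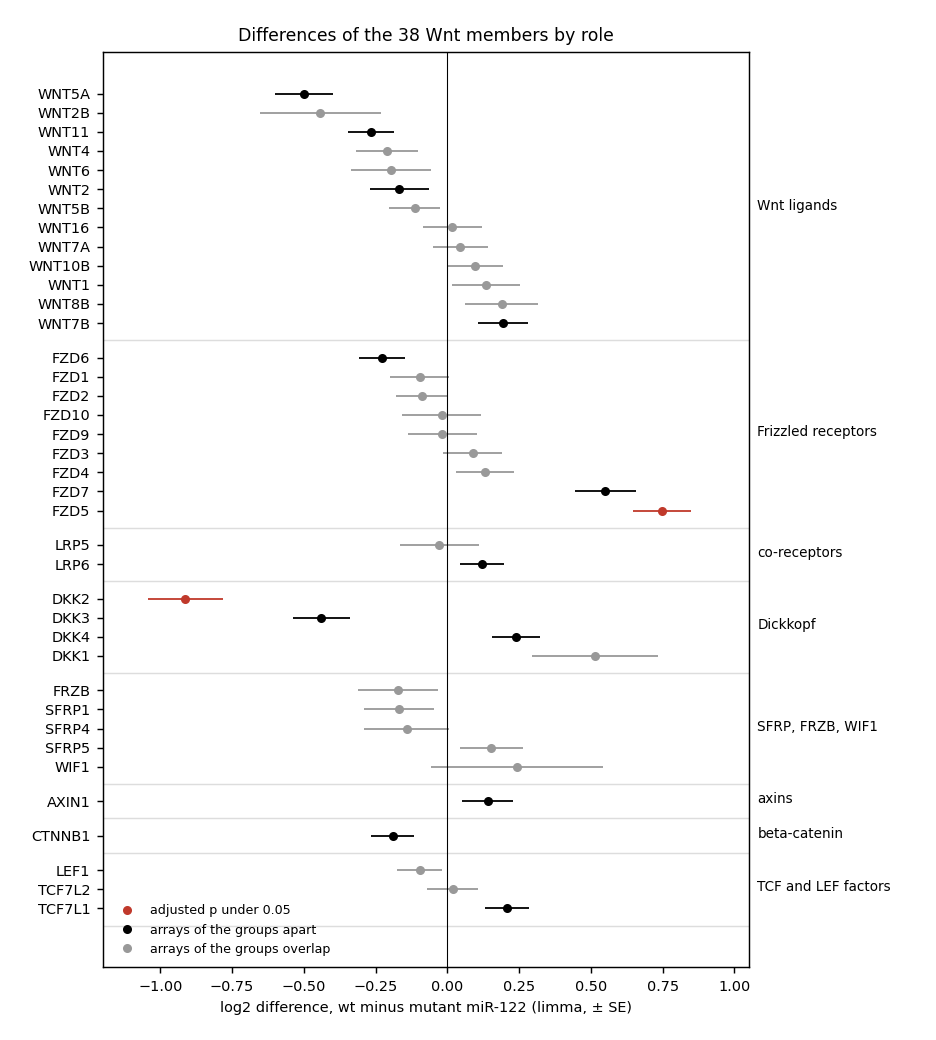
Log2 difference (wt minus mutant miR-122) of the 38 genes, grouped by role, with bars of 1 SE from limma on 3 mutant and 2 wt arrays. FZD5 (0.75) and DKK2 (-0.91), in red, passed an adjusted p of 0.05, black points mark other genes whose groups of arrays do not overlap, and grey points those that overlap.

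Among the 9 Frizzled receptors, which bind Wnt proteins at the cell surface, FZD5 was the only gene past the adjusted threshold. Its values were 8.85, 9.13 and 9.03 on the mutant arrays and 9.83 and 9.68 on the wt arrays. All of the wt arrays lay above all of the mutant arrays, with no overlap. The mutant arrays averaged 9.004 ± 0.14 (SD, n = 3), and the wt arrays 9.75 ± 0.11 (SD, n = 2). FZD5 thus rose by 0.75 (SE 0.10), or 1.68-fold (adjusted p = 0.0424 by limma). The second, dimmer probe set of FZD5 read 5.14, 5.08 and 4.78 on the mutant and 5.24 on both wt arrays. There the groups were apart in the same direction, but the difference of 0.24 (SE 0.11) did not pass the test (adjusted p = 0.396 by limma).

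FZD7, a receptor gene known to be abundant in undifferentiated hESC, had the next largest difference among the Frizzled genes. Its values were 9.57, 9.85 and 9.66 in mutant and 10.35 and 10.14 in wt cells. These groups did not overlap, and the difference was 0.55 (SE 0.11, adjusted p = 0.0892 by limma). Its second probe set gave 0.46 (SE 0.13, adjusted p = 0.174 by limma), with the groups again apart.

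The other Frizzled receptors differed by -0.23 to 0.13. FZD6, which acts in planar cell polarity, was lower on both wt arrays, and its difference was -0.23 (SE 0.08, adjusted p = 0.261 by limma). FZD2 read 9.40, 9.46 and 9.33 in mutant and 9.40 and 9.22 in wt cells. Here the groups overlapped, with a difference of -0.09 (SE 0.09). FZD1, FZD3, FZD4, FZD9 and FZD10 overlapped as well.

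The co-receptors LRP5 and LRP6, which transmit the canonical signal together with a Frizzled receptor, did not pass the test. LRP6 read 6.84, 6.88 and 6.95 in mutant and 7.04 and 6.98 in wt cells, a difference of 0.12 (SE 0.08). Its groups were apart on this probe set, whereas on the other one they overlapped (-0.01). LRP5 read 6.06, 6.54 and 6.35 in mutant and 6.37 and 6.20 in wt cells, with wide overlap and a difference of -0.03 (SE 0.14).

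The 4 Dickkopf genes did not move together. DKK2, which encodes a secreted ligand of the LRP co-receptors, had the largest difference of the 38 genes. It read 7.96, 7.68 and 7.91 on the mutant arrays and 7.12 and 6.76 on the wt arrays. The highest wt array lay below the lowest mutant array. With a mean of 7.85 ± 0.15 (SD, n = 3) on mutant arrays against 6.94 ± 0.26 (SD, n = 2) on wt arrays, DKK2 fell by 0.91 on the log2 scale (SE 0.13), or 1.88-fold (adjusted p = 0.0424 by limma). A single probe set measured it.

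DKK3, a divergent member of the family that is not known as a typical LRP blocker, also lay lower on both wt arrays. Its values were 9.55, 9.46 and 9.62 in mutant and 9.23 and 8.98 in wt cells. The difference of -0.44 (SE 0.10) did not pass the test (adjusted p = 0.117 by limma). DKK3 had 5 probe sets, and they differed in sign. The next brightest gave -0.45 (SE 0.10), and the one after it -0.24 (SE 0.08), both with the groups apart. The 2 dimmest gave 0.01 and 0.19 with overlapping groups, and none of their arrays reached a value above 2.94.

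DKK1, an LRP antagonist and a commonly named target gene of the pathway it inhibits, showed the widest spread of the Dickkopf genes. It read 7.31, 7.49 and 7.28 in mutant and 8.31 and 7.44 in wt cells. Wt replicate 1 stood above all other arrays, while wt replicate 2 lay within the range of the mutant arrays. The difference was 0.52 (SE 0.22, adjusted p = 0.340 by limma), and it was 0.08 when wt replicate 1 was left out. DKK4, another LRP antagonist, was dim on all arrays (3.63 to 4.02), with a difference of 0.24 (SE 0.08, adjusted p = 0.256 by limma) and groups that were apart.

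**Figure D2:**
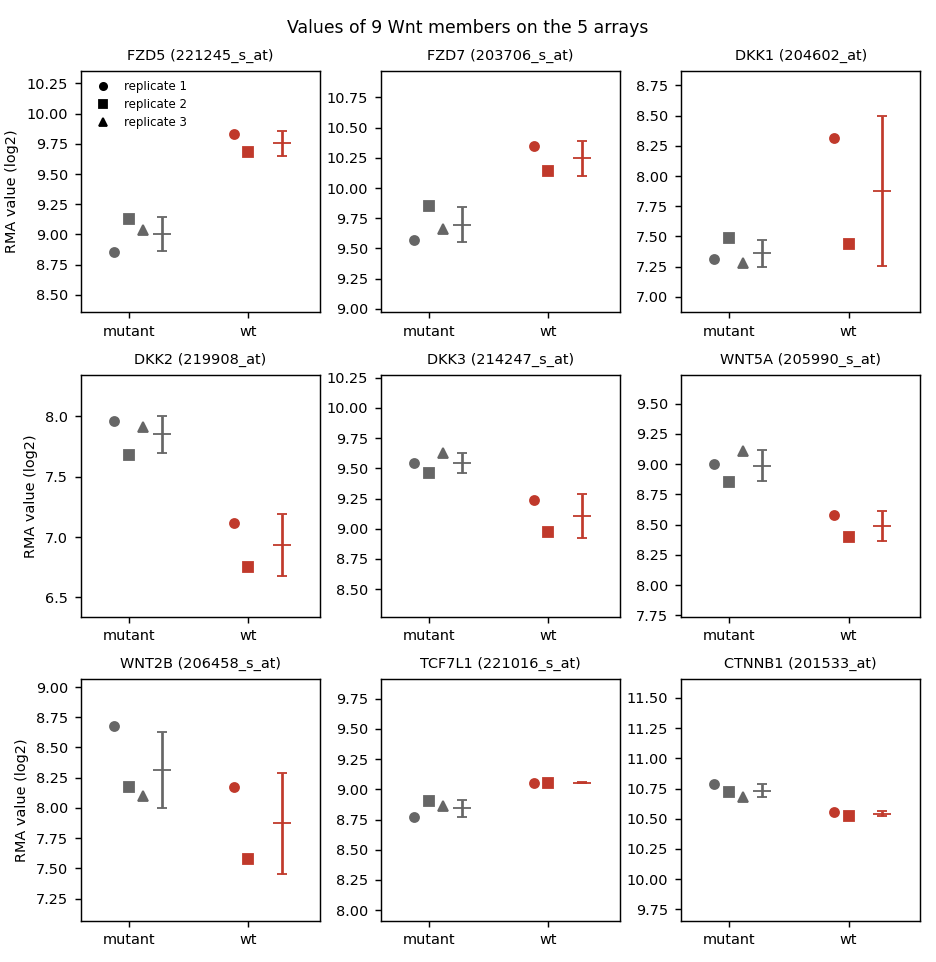
RMA values (log2, vertical axis) of 9 genes on the 3 mutant (grey) and 2 wt (red) arrays, with 1 symbol per replicate number and, beside them, the group mean with bars of 1 SD. The axes span the same range of log2 units. FZD5, FZD7, DKK2, DKK3, WNT5A, TCF7L1 and CTNNB1 show groups apart, while only wt replicate 1 (8.31) of DKK1 lies above the mutant arrays.

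RefSeq promoter windows (250 bases before to 50 after each start, GRCh38.p14) were held for 25 of the 38 genes and not used for the other 13, DKK2 and FZD7 among them. They were searched on both strands for CTTTGA, a core form bound by TCF and LEF factors, whose reverse complement is TCAAAG. Forms of the site without CTTTGA were not searched for, so the counts do not cover all possible TCF and LEF sites. Of 35116 windows of 300 bases over all genes, 12.9% held it. Among the 30 windows of the 25 genes, the only one that held it was that of DKK1, with 2 matches. The longer form CTTTGAT, which contains CTTTGA, was in 2.62% of all windows and in none of the 30. The windows of FZD5, which rose, and of DKK1 are shown, with matches to CTTTGA or TCAAAG in capitals. That of FZD5 is chr2:207769857-207770156 (minus strand) and has no match, and that of DKK1 is chr10:52314031-52314330 (plus strand).
FZD5: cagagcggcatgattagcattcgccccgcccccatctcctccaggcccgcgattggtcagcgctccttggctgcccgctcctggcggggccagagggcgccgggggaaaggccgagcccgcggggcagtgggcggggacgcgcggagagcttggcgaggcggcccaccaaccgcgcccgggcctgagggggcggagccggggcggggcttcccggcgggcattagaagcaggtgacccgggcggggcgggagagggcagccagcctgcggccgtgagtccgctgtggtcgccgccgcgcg
DKK1: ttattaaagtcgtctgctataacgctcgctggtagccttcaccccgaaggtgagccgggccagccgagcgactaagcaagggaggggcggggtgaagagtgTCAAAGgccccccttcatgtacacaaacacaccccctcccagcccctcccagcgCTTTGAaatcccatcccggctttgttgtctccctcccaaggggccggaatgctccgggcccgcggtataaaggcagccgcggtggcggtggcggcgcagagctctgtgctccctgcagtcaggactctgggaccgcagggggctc
The GC content was 77.0% in the window of FZD5 and 63.7% in that of DKK1. In DKK1, the match on the opposite strand began 149 bases before the start and the match on the same strand 95 bases before it. A match describes the letters of the window only, and binding was not measured here.

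The Wnt ligands held no gene past the adjusted threshold. Of 13, 7 had a lower and 6 a higher mean in wt cells, between -0.50 and 0.19, and 2 (15.4%) were lower at an unadjusted p under 0.05 and none higher, beside 6.87% and 8.84% of all genes. WNT5A, the ligand best known for signaling without beta-catenin, differed most. Its values were 9.002, 8.85 and 9.11 in mutant and 8.58 and 8.40 in wt cells. The groups were apart, with a difference of -0.50 (SE 0.10, adjusted p = 0.0926 by limma). Its second probe set read 7.76, 7.79 and 7.84 in mutant and 7.31 and 7.37 in wt cells. That difference was -0.46 (SE 0.07, adjusted p = 0.0573 by limma), also with no overlap.

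WNT2B, which signals through beta-catenin, had a difference of similar size but a wider spread. It read 8.68, 8.18 and 8.10 in mutant and 8.17 and 7.58 in wt cells. Wt replicate 1 fell within the mutant range, and the difference was -0.44 (SE 0.21, adjusted p = 0.391 by limma). The second probe set gave -0.45 (SE 0.23).

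WNT6 read 8.10, 8.56 and 8.23 in mutant and 8.20 and 7.99 in wt cells, with overlap and a difference of -0.20 (SE 0.14). Its 3 dimmer probe sets gave 0.07, -0.05 and 0.06, so the sign was not shared. WNT11, a ligand of the polarity branch, was the other gene lower at an unadjusted p under 0.05. Both wt arrays lay below the mutant arrays, with a difference of -0.27 (SE 0.08, adjusted p = 0.204 by limma).

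The remaining 9 ligands were WNT1, WNT2, WNT4, WNT5B, WNT7A, WNT7B, WNT8B, WNT10B and WNT16. Their differences lay between -0.21 and 0.19. The groups were apart in 2 of them, WNT2 (-0.17), whose nearest arrays nearly touched at 4.94 and 4.95, and WNT7B (0.19). Of all 13 ligands, 1 (7.69%) was apart as higher and 3 (23.1%) as lower, beside 21.5% and 13.4% of all genes.

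The antagonists that bind Wnt proteins directly did not pass the test, and in none of the 5 were the groups apart. Among all genes, 21.5% were apart as higher and 13.4% as lower. SFRP1 read 8.57, 8.80 and 8.99 in mutant and 8.66 and 8.58 in wt cells. Its difference was -0.17 (SE 0.12), and its other probe sets gave -0.26 and -0.25. FRZB, a secreted Frizzled-related protein, read 7.71, 7.56 and 8.04 in mutant and 7.52 and 7.68 in wt cells.

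The difference in FRZB was -0.17 (SE 0.14), within the spread of the mutant arrays. SFRP5 read 5.32, 5.61 and 5.50 in mutant and 5.52 and 5.74 in wt cells, a difference of 0.15 (SE 0.11). SFRP4 was dim, with a difference of -0.14. WIF1, also dim, varied widely within both groups, from 3.52 to 4.52 in mutant and from 3.87 to 4.64 in wt cells (0.24, SE 0.30).

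Inside the cell, none of the 5 core factors passed the adjusted threshold. The groups were apart for CTNNB1 (lower in wt cells) and for AXIN1 and TCF7L1 (higher), as they were for 13.4% and 21.5% of all genes. CTNNB1, the gene of beta-catenin, read 10.79, 10.72 and 10.68 in mutant and 10.56 and 10.53 in wt cells. This gap was small, with a difference of -0.19 (SE 0.07, adjusted p = 0.303 by limma). TCF7L1, a TCF factor that acts mainly as a repressor in pluripotent cells, read 8.77, 8.91 and 8.86 in mutant and 9.05 and 9.06 in wt cells. It had a difference of 0.21 (SE 0.08, adjusted p = 0.281 by limma). AXIN1, the scaffold of the destruction complex, read 7.13, 7.36 and 7.25 in mutant and 7.39 on both wt arrays.

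The AXIN1 difference was 0.14 (SE 0.09). TCF7L2 read 10.68, 10.91 and 10.78 in mutant and 10.85 and 10.77 in wt cells, a difference of 0.02 (SE 0.09). Its 6 probe sets lay between -0.16 and 0.15, none with groups apart, so no direction was shared. LEF1, which activates target genes with beta-catenin, read 8.27, 8.32 and 8.25 in mutant and 8.25 and 8.12 in wt cells. The groups overlapped, and the difference was -0.10 (SE 0.08). Its dimmer probe sets gave -0.18 and -0.12.

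Of the 38 genes, 13 had several probe sets, and in 9 of these the probe sets shared a sign. The exceptions were WNT6, LRP6, DKK3 and TCF7L2. In each of these the probe sets that went the other way gave differences of 0.19 or less in size.

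**Figure D3:**
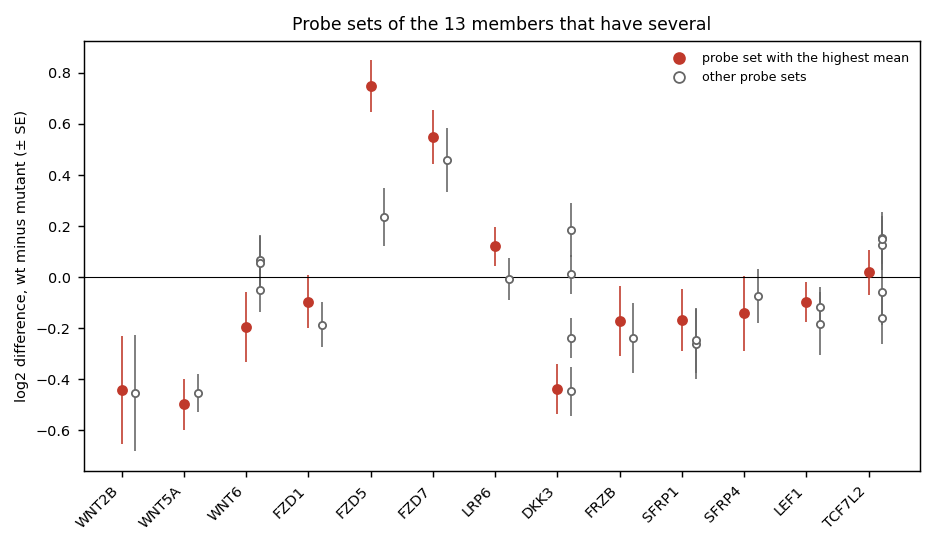
Log2 difference (wt minus mutant miR-122, bars of 1 SE from limma) of every probe set of the 13 genes that have several, with the probe set of the highest mean in red and the others as open circles. WNT5A, WNT2B and FZD7 gave similar values on both probe sets, while FZD5 gave 0.75 and 0.24 and DKK3 spread from -0.45 to 0.19.

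The summed levels of the undifferentiated hESC markers and of the mesenchyme markers were apart between the groups. Of the 14 markers of undifferentiated hESC, 10 were measured, all with wt arrays above mutant arrays, beside 21.5% of all genes. The log2 of their summed level was 13.80 to 13.94 in mutant and 14.15 to 14.20 in wt cells. DNMT3B, UTF1 and FGF4 of this list rose past the adjusted threshold, by 0.72, 0.75 and 0.56. FZD5 and FZD7 were higher on the same wt arrays, as were 21.5% of all genes. The 14 markers of fibroblasts and mesenchyme, which feeder cells would also express, had a log2 summed level of 14.28 to 14.57 in mutant and 13.81 to 13.97 in wt cells. Of these, 12 had a lower mean in wt cells, and none passed the adjusted threshold by limma. At an unadjusted p under 0.05 by limma, 10 (71.4%) were lower, beside 6.87% of all genes. DKK2, DKK3 and WNT5A were lower on the same arrays, as were 13.4% of all genes. A shared direction in this contrast does not link any of these genes to the markers.

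In the other lists, 10 trophoblast markers had a mean log2 value of 7.34 to 7.58 in mutant and 7.05 to 7.17 in wt cells. Of these 10 markers, 2 had a higher and 8 a lower mean in wt cells. HSD3B1 fell by 1.56. CGA (-1.08) and KRT7 (-0.77) also lay lower on both wt arrays, with adjusted p values of 0.0837 and 0.132 by limma. TFAP2C (0.32) and PSG1 (0.16), not past the adjusted threshold, had wt arrays above mutant arrays. Thus 2 (20%) were apart as higher and 3 (30%) as lower, beside 21.5% and 13.4% of all genes. The log2 of the summed level of the 10 overlapped, at 12.23 to 12.64 in mutant and 12.24 to 12.27 in wt cells. In 5 mesoderm markers the mean log2 value was 6.15 to 6.28 and 5.98 to 6.13, with 2 higher and 3 lower means. HAND1 fell by 0.91, while KDR, not past the adjusted threshold, had a difference of 0.35 with wt arrays above mutant arrays. The groups overlapped for the rest of this list. The log2 of the summed level of the 5, to which HAND1 added most, was 9.23 to 9.38 in mutant and 8.83 to 9.02 in wt cells. The mean log2 value and the log2 summed level of the 10 endoderm and liver markers overlapped between the groups, and so did those of the 5 neural markers. Single markers of these lists had groups apart, CXCR4 (0.65) and GATA6 (-0.49) in endoderm and liver and NES (-0.26) in neural, with adjusted p values of 0.111, 0.147 and 0.209 by limma. Of the undifferentiated hESC markers none, of the mesenchyme markers 1 and of the endoderm and liver markers 5 lay below the median level of all probe sets. Of all 11963 genes, 5078 did. The part of these markers in the differences of FZD5, FZD7, DKK2, DKK3 and WNT5A was not tested.

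Beyond the 38 genes, 91 of 123 other genes of the pathway were measured, and none passed the adjusted threshold in either direction by limma. At an unadjusted p under 0.05, 7 (7.69%) were higher and 7 (7.69%) lower, close to the 8.84% and 6.87% of all genes, and the methods' t-test gave 5 and 4 at this unadjusted threshold. Their differences had a median of 0.00, and 47 means were higher and 44 lower, beside 6990 and 4973 of all genes.

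Among the 20 genes of the cytoplasmic relay and destruction complex, FRAT2, whose protein binds GSK3 and favors beta-catenin, came closest to the threshold. It read 7.80, 7.92 and 7.82 in mutant and 8.40 and 8.23 in wt cells (0.47, SE 0.09, adjusted p = 0.0725 by limma). DACT1, a binding partner of Dishevelled, read 8.53, 8.63 and 8.56 in mutant and 8.19 and 8.17 in wt cells (-0.39, SE 0.07, adjusted p = 0.0820 by limma). Thus the groups were apart in both, in opposite directions. In this list 4 genes (20%) were higher and 1 (5%) was lower at an unadjusted p under 0.05, beside 8.84% and 6.87% of all genes.

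The 23 commonly named Wnt target genes had 8 higher and 15 lower means in wt cells, with a median of -0.05, and the groups were apart for 1 higher (4.35%) and 7 lower genes (30.4%), beside 21.5% and 13.4% of all genes. MSX2, a homeobox gene, had a difference of -0.39 (SE 0.08). TGFB1I1, a focal adhesion adaptor also made by smooth muscle cells, had a difference of -0.90 (SE 0.20). Both had an adjusted p of 0.109 by limma. Over the alternatives tried, the difference of MSX2 lay between -0.44 and -0.11, and that of TGFB1I1 between -1.03 and -0.67. Whether TGFB1I1 or the other genes of this list respond to Wnt signaling in these cells was not tested. In the list of secretion and surface modulators (10 genes, median 0.09), the smallest p values after adjustment were those of the glypican GPC3 (0.37, adjusted p = 0.260 by limma) and the R-spondin receptor LGR5 (0.17, adjusted p = 0.391 by limma). In the 17 nuclear cofactors (median 0.03) they were those of HDAC1 (0.27) and TLE2 (0.17). Here 13 of 17 means were higher in wt cells, beside 6990 of all 11963 genes. The 21 genes of the polarity and calcium branch, where WNT5A, WNT11 and FZD6 also act, had a median of -0.02. DAAM2 (-0.38) and CELSR1 (-0.19) led it, with adjusted p values of 0.264 and 0.322 by limma.

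**Figure D4:**
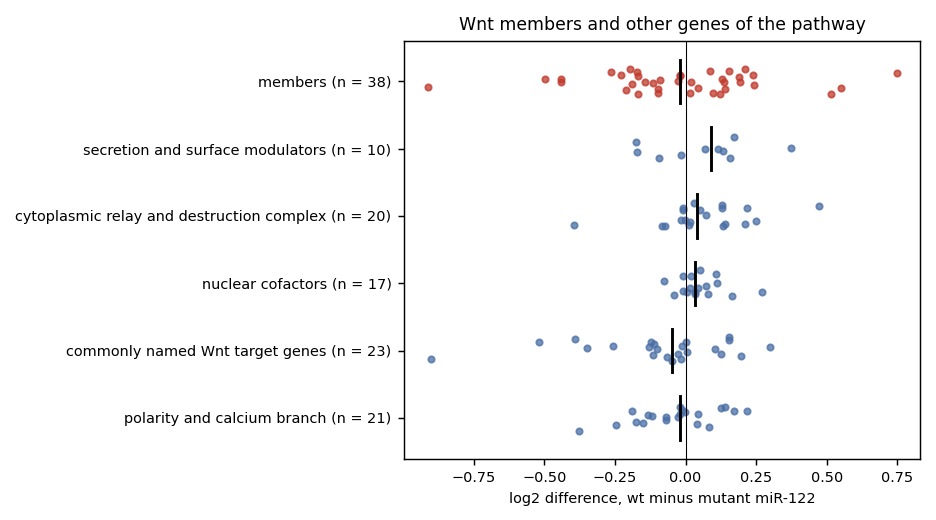
Log2 difference (wt minus mutant miR-122, horizontal axis) of the 38 genes (red) and of 91 other pathway genes in 5 lists (blue), 1 point per gene, with a black bar at each median; vertical position within a row carries no value. Medians lay between -0.05 and 0.09, and single genes such as DKK2 (-0.91), TGFB1I1 (-0.90) and FZD5 (0.75) lay far from them.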

How the data were processed

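RNA of HES2 cells was measured on 5 Affymetrix gene expression arrays, which the sample titles place in the mutant (3 arrays) or the wt miR-122 group (2 arrays). The deposited table holds log2 values that the authors made with RMA, without pooling replicates. Scanner files were not used here. Arrays have no counts, and with 5 of them the precision is limited.

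Leaving out 62 control probe sets of 22277, 22215 were tested with limma 3.58.1 (lmFit, eBayes; R 4.3.3). Group was the single term, with 3 residual and 4.87 prior degrees of freedom. The threshold was 0.05 after Benjamini-Hochberg adjustment over all 22215. By the platform annotation, 19064 of them name 1 gene, 1043 name several and 2108 are unnamed here.

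Alternatives tried were a plain t-test as in the methods, a trended robust prior, dropping dim probe sets, centring, a replicate block, averaging the probe sets of a gene, dropping probe sets ending in _x_at or _s_at, and dropping each array. Array values are given for genes past the threshold, for others with groups apart and a difference of at least 0.3, and for the 3 with the highest mean in each role. WNT2, WNT11, FZD6, DKK4 and WIF1 were described beyond these after their values were seen. So were the markers CGA, KRT7, TFAP2C, PSG1, KDR, CXCR4, GATA6 and NES. Of the other pathway genes, the 2 with the smallest adjusted p in each list are named and, of the markers, mainly those past the threshold. The genes, lists and tests were chosen with earlier results of these data known, and the lists were written from general knowledge.

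In 20 simulated data sets of 22215 probe sets, 200 differed between 3 and 2 arrays. There limma found 83.4% of the 2-fold and 51.8% of the 1.5-fold differences, with 3.53% of calls false. The noise was drawn independently for each probe set and array, so effects shared across an array or between probe sets were not simulated. Sequences are from RefSeq (GRCh38.p14), and plots were made in matplotlib 3.10.9 (Python 3.11.15).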

Additional observations from a re-analysis of the deposited data

How the results depend on the processing

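The number of arrays limits these comparisons: no result passed the adjusted threshold among the 38 genes when any single array was left out (0 higher and 0 lower in each case), and the same held for the other pathway genes (0 and 0). Over all probe sets, 0 to 3 passed as higher and 0 as lower, beside 43 and 42 with all arrays. Without 1 array, FZD5 differed by 0.67 to 0.82 (adjusted p = 0.0698 to 0.216 by limma) and DKK2 by -1.10 to -0.73 (adjusted p = 0.0698 to 0.227 by limma), FZD7 by 0.45 to 0.65, WNT5A by -0.59 to -0.41, DKK3 by -0.57 to -0.31 and DKK1 by 0.08 to 0.95.

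The methods' t-test at an unadjusted p under 0.05 gave 1551 higher and 873 lower probe sets, 4 and 6 of the 38 genes, and 5 and 4 other pathway genes. After Benjamini-Hochberg it gave 0 and 0 in each. With an intensity trend and a robust prior there were 137 and 183 probe sets, 2 and 3 of the 38 genes (FZD7, DKK3 and WNT5A being added), and 1 and 3 other pathway genes. The filter on dim probe sets gave 62 higher and 97 lower probe sets, and 1 and 1 other pathway genes. With the mean of all probe sets, 1 and 2 of the 38 genes and 1 and 1 other pathway genes passed. Without probe sets ending in _x_at or _s_at, 0 and 2 of the 28 genes still measured and 1 and 0 other pathway genes passed. There FZD5 was left with its dim probe set (0.24).

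The labels do not say whether same-numbered arrays are paired. Deviations from the group means correlated at 0.147 (replicate 1) and 0.123 (replicate 2), with 2 pairs. These 2 values are not independent, because the deviations of the 2 wt arrays mirror each other, and they cannot decide whether the arrays are paired. With the replicate block, 364 and 531 probe sets, 3 and 4 of the 38 genes (FZD7, WIF1, WNT2B, WNT5A and DKK3 being added), and 2 and 5 other pathway genes passed.

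The sign was the same in every alternative for 26 of the 38 genes. It turned with the replicate block for FZD9 (0.027), WNT16 (-0.036) and WNT7A (-0.023), and without probe sets ending in _x_at or _s_at for DKK3 (0.011) and WNT6 (0.066). It turned when an array was left out for 10 genes: FZD10 (-0.13 to 0.11), FZD2 (-0.18 to 0.0027), FZD9 (-0.21 to 0.18), LRP5 (-0.16 to 0.084), SFRP4 (-0.28 to 0.0018), TCF7L2 (-0.036 to 0.077), WIF1 (-0.14 to 0.63), WNT1 (-0.0011 to 0.27), WNT16 (-0.079 to 0.11) and WNT7A (-0.025 to 0.12). The cause of these changes was not tested. Centring each array changed no call of the 38 genes.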
